A study of Mus musculus with 17 samples.

Results

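The major histocompatibility complex (MHC) class II pathway was followed through 9 genes in macrophages of the lupus kidney. They were taken by symbol from a list of the pathway's genes, drawn up with earlier results of these data known, and all 9 were measured, out of 15780 named genes on the array. With their Entrez identifiers they were H2-Aa (14960), H2-Ab1 (14961), H2-Eb1 (14969), Cd74 (16149), H2-DMa (14998), H2-DMb1 (14999), H2-Oa (15001), H2-Ob (15002) and Ciita (12265). The 7 H2 genes lie on mouse chromosome 17, Ciita on chromosome 16 and Cd74 on chromosome 18.

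MHC class II molecules present peptides from the endosomes of dendritic cells, B cells and macrophages to CD4 T cells. Their α and β chains (I-A from H2-Aa and H2-Ab1, the β chain of I-E from H2-Eb1) assemble on the invariant chain, the product of Cd74, which blocks the peptide groove and steers the complex to endosomes. There proteases trim the invariant chain, DM (H2-DMa and H2-DMb1) exchanges the remaining fragment for peptide, and DO (H2-Oa and H2-Ob), known mainly from B cells and some dendritic cells, restrains DM. CIITA, the product of Ciita, is the coactivator that most of these genes need for transcription.

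The cells were F4/80hi cells sorted by flow cytometry from kidneys of NZB/W mice, a hybrid strain that develops lupus nephritis. The prenephritic group, titled young, held 6 arrays from mice 8 to 16 weeks old, and the nephritic group, titled sick, held 7 arrays from mice 2 to 6 weeks after proteinuria began and before terminal renal failure. The remission group held 4 arrays from mice in complete remission for 3 to 4 weeks, after a single (1) dose of cyclophosphamide with 6 doses of CTLA4Ig and with anti-CD154. CTLA4Ig blocks T cell costimulation and anti-CD154 blocks the ligand of CD40, so drug exposure and remission cannot be told apart, and the ages of the nephritic and remission mice are not in the labels. Nothing in the labels ties each array to its own mouse, so a p-value covers the spread of these arrays, which may be technical. Sorted cells are a bulk sample, in which fewer cells of a type and less RNA per cell cannot be told apart. Macrophage identity genes were read as a check of the labelled cell type, with 11 of 12 measured. Adgre1, the F4/80 gene, had group means of 13.08 to 13.24, and Csf1r, the macrophage growth factor receptor gene, of 13.32 to 13.47. In nephritic arrays 2 of the 11 rose, the engulfment receptor gene Mertk by 1.22 ± 0.21 and the Fc receptor gene Fcgr1 by 0.63 ± 0.14 (adjusted p = 0.0012 and 0.0070), and the same 2 were lower in remission than in nephritic arrays, by 1.26 ± 0.24 and 0.55 ± 0.16 (adjusted p = 0.0027 and 0.031). All levels are log2 RMA values, and each difference is between log2 group means.

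The upstream sequences of class II genes are shown first, because CIITA acts on a shared promoter module, in which an X box that binds the RFX complex lies before a Y box that binds NF-Y. RefSeq promoter windows (GRCm38.p6, 250 bases before to 50 bases after the gene's start) matched 6 of the 9 members in 7 windows, and not H2-Ab1, Cd74 or Ciita. A match was counted on either strand for TGATTGG, the core of the Y box, and for GNAAC followed by TGATTGG after 15 to 40 bases, letters chosen after the windows had been read. The pair was present in the windows of 5 of the 6 genes, and in 0.715% of all 32851 windows. TGATTGG alone was present in the same 5 genes and in 7.82% of all windows. Neither was in the 2 windows of H2-DMa. The stretches run 5′ to 3′ on the gene's strand, with the 2 matches in capitals:
H2-Aa (chr17:34287855-34287916, minus strand): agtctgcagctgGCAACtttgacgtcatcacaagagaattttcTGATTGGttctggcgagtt
H2-Eb1 (chr17:34305764-34305824, plus strand): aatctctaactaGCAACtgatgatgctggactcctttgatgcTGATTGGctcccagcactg
H2-DMb1 (chr17:34153085-34153146, plus strand): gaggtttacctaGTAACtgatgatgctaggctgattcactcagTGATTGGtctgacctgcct
H2-Oa (chr17:34092291-34092352, plus strand): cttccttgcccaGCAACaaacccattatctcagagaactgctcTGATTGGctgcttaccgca
H2-Ob (chr17:34238806-34238864, plus strand): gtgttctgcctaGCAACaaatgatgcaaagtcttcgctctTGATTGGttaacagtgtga
The gap between the matches was 26 bases in H2-Aa, H2-DMb1 and H2-Oa, 25 in H2-Eb1 and 23 in H2-Ob. A match describes the letters in a window and shows no binding. The pair was thus found in both DO genes, H2-Aa, H2-Eb1 and H2-DMb1, and of the members with a window only H2-DMa lacked it. H2-Ab1, Cd74 and Ciita had no window to search.

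The comparison of nephritic with prenephritic arrays asks what is different in the cells of proteinuric mice. Both DO genes fell, H2-Oa by 1.35 ± 0.33 (SE) on the log2 scale, or 2.55-fold (adjusted p = 0.013), and H2-Ob by 0.94 ± 0.19, or 1.92-fold (adjusted p = 0.0036). The other 7 members had lower nephritic means too, by 0.33 or less, and none passed the test. So 0 of 9 members were called higher and 2 lower, against 6.74% and 5.32% of all genes tested. For 0 members did the groups separate fully, as was so for 3.07% of all genes upward and 1.61% downward. All 9 differences were below 0, as were 54.3% of those of all genes. The median difference was −0.14 over the members and −0.02 over all genes.

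H2-Oa, which encodes the DO α chain, was at 7.55 in the lowest prenephritic array, with a median of 8.92 and a highest value of 9.53. In nephritic arrays it ran from 6.75 through a median of 7.33 to 7.89. The 4 remission arrays stood at 8.05, 7.79, 6.28 and 7.43. In 5 of 6 prenephritic arrays H2-Oa lay above every nephritic and every remission array, and prenephritic replicate 6 lay inside both ranges. Group levels were 8.76 ± 0.76 (SD, n = 6), 7.41 ± 0.42 (SD, n = 7) and 7.39 ± 0.78 (SD, n = 4), so nephritic and remission arrays were neighbours that differed by less than their spread.

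H2-Ob, which encodes the DO β chain, ran from 9.06 through a median of 10.07 to 10.24 in prenephritic arrays. In nephritic arrays it ran from 8.15 through a median of 9.13 to 9.19, with the lowest value in replicate 5. The remission arrays stood at 9.58, 9.41, 9.36 and 9.52. Prenephritic replicate 6 was again the lowest of its group, and the other 5 lay above all nephritic and all remission arrays. The order of the group means was prenephritic (9.92 ± 0.45, SD, n = 6), remission (9.47 ± 0.10, SD, n = 4) and nephritic (8.98 ± 0.37, SD, n = 7). With each array left out in turn, the nephritic difference stayed between −1.59 and −1.20 for H2-Oa and between −1.11 and −0.81 for H2-Ob, with adjusted p of at most 0.035 and 0.011. Neither passed an exact rank-sum test adjusted over all genes (adjusted p = 0.073 and 0.10).

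**Figure D1:**
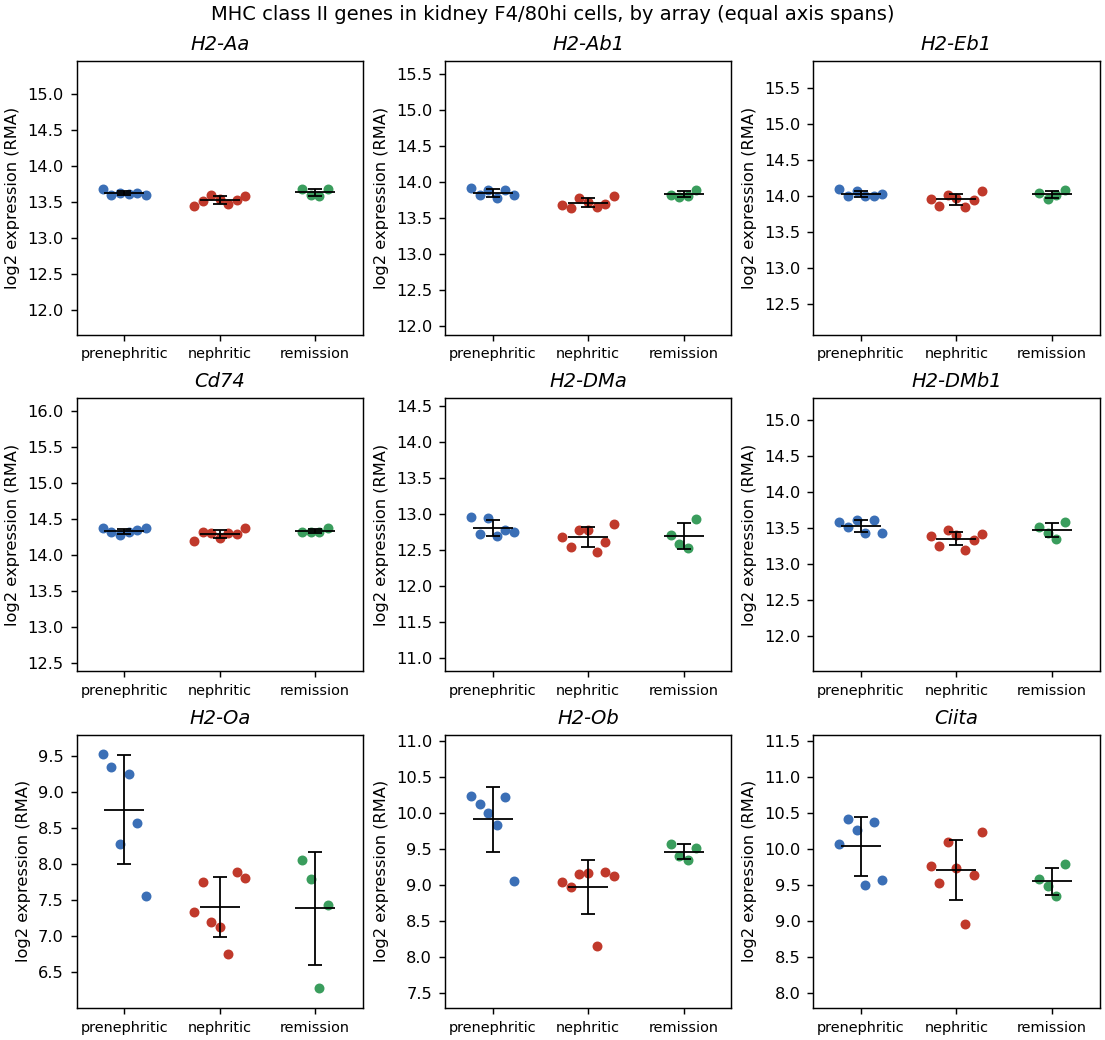
Log2 RMA expression (y axis) of the 9 class II genes in prenephritic (6 arrays), nephritic (7 arrays) and remission (4 arrays) cells; points are arrays, the black line is the group mean and the bars are ± SD, and all panels span the same number of log2 units. H2-Oa and H2-Ob are lower in nephritic arrays, apart from prenephritic replicate 6 (7.55 and 9.06), while the classical chains and Cd74 form narrow bands.

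The classical chains were near the top of the array's scale and moved little. H2-Ab1, the I-A β chain gene, was at 13.78, 13.85 and 13.92 (lowest, median and highest) in prenephritic arrays and at 13.65, 13.70 and 13.81 in nephritic arrays. Its remission arrays stood at 13.83, 13.80, 13.81 and 13.90. In 5 of 7 nephritic arrays H2-Ab1 was below every prenephritic array, with a difference of −0.14 ± 0.04 (95% interval −0.23 to −0.04, adjusted p = 0.054). H2-Aa, the I-A α chain gene, was below every prenephritic array in 6 of 7 nephritic arrays, with a difference of −0.10 ± 0.04 (−0.19 to −0.01, adjusted p = 0.16). For H2-Eb1, the I-E β chain gene, the difference was −0.08 ± 0.05 (−0.18 to 0.02, adjusted p = 0.33). Group means ran from 13.52 to 13.64 for H2-Aa, from 13.72 to 13.85 for H2-Ab1 and from 13.95 to 14.03 for H2-Eb1, lowest in nephritic arrays in each case.

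Cd74 held the brightest probe set of the table by mean, ranked first on 13 of 17 arrays and never below rank 3. It ran from 14.27 through 14.33 to 14.37 in prenephritic arrays and from 14.20 through 14.30 to 14.37 in nephritic arrays, and the remission arrays stood between 14.32 and 14.37. The groups overlapped, and the nephritic difference was −0.04 ± 0.04 (95% interval −0.13 to 0.05, adjusted p = 0.60). A rank reflects probe response as well as transcript amount, and the match of the probes to the class II alleles of this strain is not known here. Bright probe sets differed less in general. Of the 102 genes with a mean of at least 13, a limit set after the data were seen, 0 differed 2-fold or more between these groups, and the median size of their difference was 0.069 against 0.119 over all genes. The small differences of H2-Aa, H2-Ab1, H2-Eb1, H2-DMb1 and Cd74 lie in that range of the scale, and their intervals bound the change of the signal and not of the RNA. The percentage called was 12.7% there and 12.1% over all genes.

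DM genes lay between these patterns. H2-DMb1, the DM β chain gene, was at 13.43, 13.56 and 13.62 in prenephritic arrays and at 13.21, 13.39 and 13.48 in nephritic arrays. In 6 of 7 nephritic arrays it was below all prenephritic arrays, with a difference of −0.18 ± 0.06 (95% interval −0.30 to −0.05, adjusted p = 0.059). H2-DMa, the DM α chain gene, had group levels of 12.81 ± 0.11 (SD, n = 6), 12.67 ± 0.14 (SD, n = 7) and 12.69 ± 0.18 (SD, n = 4), and its nephritic difference was −0.13 ± 0.08 (−0.30 to 0.04, adjusted p = 0.33). H2-Ab1 and H2-DMb1 lay close to the threshold. With the mean of the kidney tubule lists as a covariate their differences were −0.15 and −0.20 with adjusted p = 0.019 and 0.0086, so that 4 of 9 members were then called lower.

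Ciita, the coactivator gene, ran from 9.50 through 10.17 to 10.42 in prenephritic arrays and from 8.96 through 9.74 to 10.24 in nephritic arrays. Its remission arrays stood at 9.59, 9.49, 9.35 and 9.79. The groups overlapped over most of their range, and the differences were −0.33 ± 0.19 for nephritic minus prenephritic (95% interval −0.74 to 0.08, adjusted p = 0.32) and −0.48 ± 0.23 for remission minus prenephritic (−0.96 to −0.01, adjusted p = 0.26). With single arrays left out the first ran from −0.43 to −0.20, the latter without nephritic replicate 5. It was −0.40 with the tubule lists as a covariate and −0.42 with the replicate number as a block. The second was −0.20 with the tubule lists and −0.31 with the dendritic cell list as a covariate. It was −0.55 with array weights and −0.58 with the block. Neither difference passed in any alternative. Its order was prenephritic, nephritic and remission, with neighbouring groups within their spread of each other.

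Differences between remission and nephritic arrays were tested next, which asks what differs after treatment. Of the 9 members, 7 had higher means in remission, and 0 passed the limma test in either direction, while 3.27% of all genes were called higher and 10.0% lower. At an unadjusted p under 0.05, limma gave 3 higher and 0 lower members, H2-Aa, H2-Ab1 and H2-Ob. The exact rank-sum test gave 4 higher and 0 lower at that threshold. The share of all genes at that threshold was not counted, so these counts have no background to be set against. After adjustment the rank-sum test called 0 of all 15780 genes in this comparison, so it could call no member. H2-Ob was higher by 0.49 ± 0.21 (95% interval 0.04 to 0.94, adjusted p = 0.14), and all 4 remission arrays lay above all 7 nephritic arrays. It was the only member whose groups did not overlap, as was so for 1.70% of all genes in that direction and for 6.95% in the opposite direction. With the tubule lists as a covariate the H2-Ob difference was 0.80 (adjusted p = 0.032), and with the dendritic cell list it was 0.66 (adjusted p = 0.031). The difference of H2-Oa was −0.02 ± 0.37 (−0.81 to 0.78, adjusted p = 0.98). H2-Ab1 and H2-Aa differed by 0.12 ± 0.05 and 0.11 ± 0.05 (adjusted p = 0.12 and 0.13), and their remission means lay within 0.02 of the prenephritic ones. Whether H2-Oa and H2-Ob responded differently was not tested. This comparison and the preceding 1 share the nephritic arrays and are not independent.

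In the comparison of remission with prenephritic arrays, which asks whether levels after treatment match those before disease, 0 members passed in either direction, while 1 gene of 15780 (0.00634%) passed, in the lower direction. For 0 members did the groups separate fully, against 0.393% of all genes upward and 1.93% downward. At an unadjusted p under 0.05, limma gave 0 higher and 2 lower members (H2-Oa and Ciita) and the exact rank-sum test 0 higher and 1 lower. The share of all genes at that threshold was not counted here either. H2-Oa had a difference of −1.37 ± 0.39 (95% interval −2.19 to −0.55, adjusted p = 0.16). Its adjusted p was 0.044 with the replicate number as a block, 0.049 with array weights and 0.038 without prenephritic replicate 6, and 0.26 with the dendritic cell list as a covariate, where the difference was −0.69. The settings in which H2-Oa passed also called more of the 15780 genes, 234 higher and 244 lower with the block, 69 and 289 with array weights, and 28 and 171 without prenephritic replicate 6. H2-Ob differed by −0.45 ± 0.22 (−0.92 to 0.02, adjusted p = 0.28), by −0.14 with the dendritic cell list and by −0.21 with the tubule lists as a covariate. For the classical chains and Cd74 the intervals lay within 0.13 of 0 on the log2 scale.

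**Figure D2:**
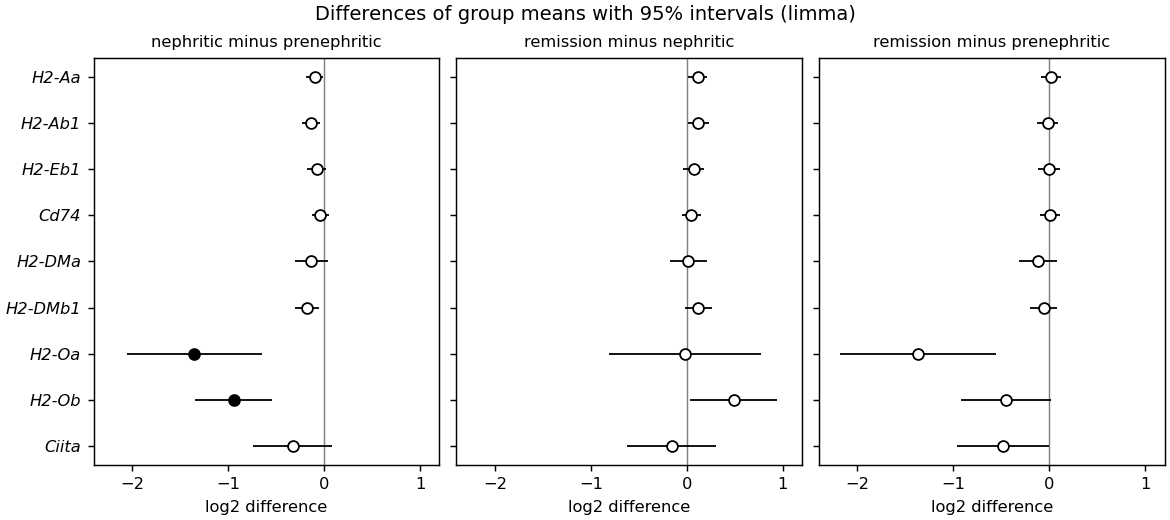
Log2 differences of group means (x axis) of the 9 genes in the 3 comparisons, with 95% limma intervals; filled points have an adjusted p of at most 0.05 over 15780 genes. Filled points are H2-Oa (−1.35) and H2-Ob (−0.94) in nephritic minus prenephritic arrays, and intervals are narrow for the classical chains and Cd74.

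Members also varied together among arrays of the same group. As a description, Pearson's r of the deviations from the group means over 17 arrays had a median of 0.79 over the 10 pairs of H2-Aa, H2-Ab1, H2-Eb1, H2-DMa and H2-DMb1, with a range of 0.65 to 0.89. Cd74 had a median of 0.13 over its 8 pairs. H2-Oa was also low with the genes of those 10 pairs, from 0.08 with H2-Ab1 to 0.37 with H2-Aa, and stood at 0.63 with H2-Ob. These arrays share hybridisation and normalization, and nephritic replicate 5 was lowest of its group for H2-Oa, H2-Ob, H2-Eb1, H2-DMa, H2-DMb1 and Ciita. That array also had the highest tubule marker level of the nephritic group (0.57).

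Other cells could carry class II RNA into the sort, so their markers were set beside the members as mean log2 values centred on all arrays. The conventional dendritic cell list (12 of 13 markers measured) ran from −0.80 to 1.21 in prenephritic, from −0.50 to 0.47 in nephritic and from −1.07 to −0.01 in remission arrays. Of these genes 1 rose and 3 fell in nephritic arrays. The receptor gene Xcr1 rose by 2.37 ± 0.43, and Cd209a, a lectin gene, the growth factor receptor gene Flt3 and the transcription factor gene Irf4 fell by 3.73 ± 0.65, 1.63 ± 0.50 and 0.67 ± 0.15 (adjusted p = 0.0018, 0.0012, 0.042 and 0.0066). Zbtb46, another defining transcription factor gene, stood at 5.88 ± 0.65 (SD, n = 6), 6.03 ± 0.65 (SD, n = 7) and 4.88 ± 0.32 (SD, n = 4) in prenephritic, nephritic and remission arrays, and the lower quartile of all values was 5.00. In remission against nephritic arrays 2 of the 12 were lower, with differences of −1.16 ± 0.35 for Zbtb46 and −1.98 ± 0.49 for Xcr1 (adjusted p = 0.036 and 0.014), and 0 were higher. Prenephritic replicate 6, lowest of its group for both DO genes, was also lowest on this list, at −0.80. That was not particular to dendritic cell markers. The same array was lowest of its group on the B cell (−0.19), plasma cell (−0.84), monocyte (−0.82) and T cell (−0.36) lists. It was highest of its group on the kidney tubule (0.75) and endothelium (0.34) lists.

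Within groups, H2-Oa followed the dendritic cell list over 17 arrays (Pearson's r = 0.73, permutation p = 0.0034 and adjusted p = 0.021 over 12 relations; Spearman's rho = 0.65, permutation p = 0.017 and adjusted p = 0.077). Without the 2 arrays farthest from the list's median, r was 0.67. For H2-Ob r was 0.60 (permutation p = 0.023, adjusted p = 0.069) with rho = 0.48 (permutation p = 0.077, adjusted p = 0.19), and 0.41 without the 2 farthest arrays. For H2-Ab1 no relation to the list was detected (r = −0.16, permutation p = 0.57, adjusted p = 0.76; rho = −0.22, permutation p = 0.43, adjusted p = 0.74; r = −0.21 without the 2 farthest arrays). With the list as a covariate, the nephritic difference was −1.03 ± 0.25 for H2-Oa (adjusted p = 0.013) and −0.79 ± 0.17 for H2-Ob (adjusted p = 0.0055). The list averages genes that rose and genes that fell, so changes of single markers can offset each other in this covariate. How far dendritic cells contributed to the DO values was not tested.

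**Figure D3:**
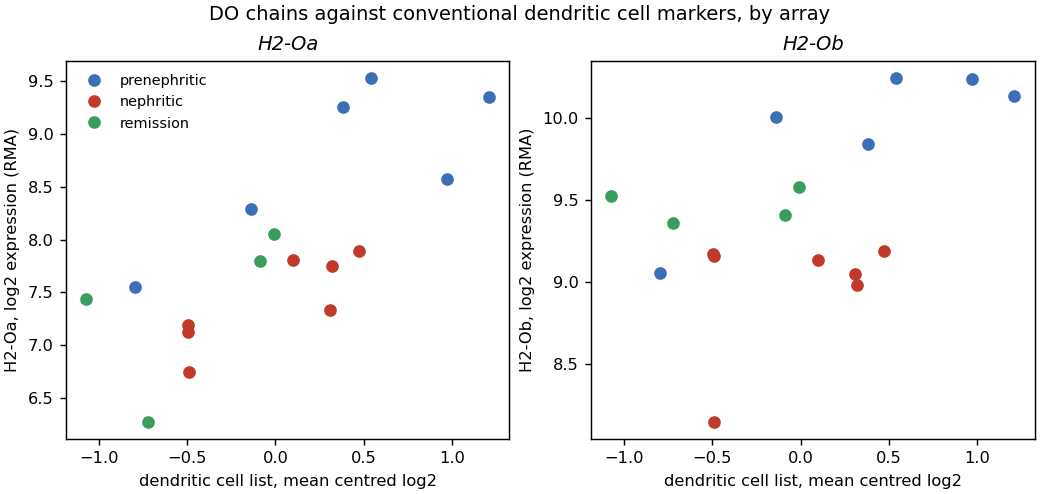
Log2 RMA expression of H2-Oa and H2-Ob (y axes) against the mean centred log2 value of 12 conventional dendritic cell markers (x axis); each point is 1 of 17 arrays, coloured by group. Most prenephritic arrays lie above the other groups, and prenephritic replicate 6 lies at −0.80 with H2-Oa at 7.55 and H2-Ob at 9.06.

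B cells are the best known source of DO. Of 14 listed genes 11 were measured, and the list ran from −0.19 to 0.28 in prenephritic, from −0.10 to 0.24 in nephritic and from −0.27 to −0.02 in remission arrays. Pax5, the B cell identity factor gene, had means of 4.65 to 4.74 in the 3 groups, under the lower quartile of all values, and Ms4a1, the CD20 gene, had 4.57 ± 0.66 (SD, n = 6) and 5.38 ± 0.79 (SD, n = 7) in prenephritic and nephritic arrays. Cd79b rose by 0.54 ± 0.15 and Bank1 fell by 0.81 ± 0.21 in nephritic arrays (adjusted p = 0.030 and 0.018). Both lay well above that quartile. Means in prenephritic, nephritic and remission arrays were 11.18, 11.72 and 11.37 for Cd79b, and 10.12, 9.31 and 9.75 for Bank1. With the B cell list as a covariate, the nephritic differences of H2-Oa and H2-Ob were −1.45 and −0.98, with adjusted p = 0.0092 and 0.0040. Within groups no relation to this list was detected for H2-Oa (r = 0.35, permutation p = 0.22, adjusted p = 0.41). Its rho was 0.31 (permutation p = 0.25, adjusted p = 0.50), and r was 0.32 without the 2 farthest arrays. None was detected for H2-Ob (r = 0.23, permutation p = 0.42, adjusted p = 0.64). Its rho was 0.12 (permutation p = 0.68, adjusted p = 0.89), and r was −0.20 without the 2 farthest arrays. This list also averages genes of opposite direction, and how far B cells contributed to the DO values was not tested. The monocyte list, in contrast, had 5 of 13 measured genes higher in nephritic arrays, with Itgam, the CD11b gene, up by 2.09 ± 0.17 and Ccr2, the monocyte chemokine receptor gene, by 0.40 ± 0.10. It ran from −0.82 to 0.63 in prenephritic, from 0.09 to 0.45 in nephritic and from −0.91 to 0.19 in remission arrays, and its part in the class II values was not tested. The plasmacytoid dendritic cell list (5 genes) ran from 0.17 to 0.39 in prenephritic, from −0.56 to 0.04 in nephritic and from −0.18 to 0.17 in remission arrays. Siglech, its defining lectin gene, fell by 2.73 ± 0.25 in nephritic arrays (adjusted p = 5.8e-06), while Cox6a2 rose by 0.32 ± 0.10 (adjusted p = 0.037). The median nephritic minus prenephritic difference of the 5 genes was −0.0067, against −0.016 over all genes, so the list did not fall as a whole. Ccr9 had group means of 4.21 to 4.71, under the lower quartile of all values. The plasma cell list (8 genes, with Irf4 shared with the dendritic cell list) had 5 genes higher and 2 lower, and Jchain, which encodes the joining chain of secreted antibodies, rose by 2.76 ± 0.52 (adjusted p = 0.0021). The 2 lower genes were Irf4 and Tnfrsf17, which fell by 1.73 ± 0.26 (adjusted p = 0.00035). The part of these 2 lists in the DO values was not tested either.

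Kidney tubule RNA varied among arrays of every group, with 36 markers of 2 lists at −0.99 to 0.75 in prenephritic, −1.96 to 0.57 in nephritic and −0.06 to 1.35 in remission arrays. H2-Ab1 was lower where these markers were higher within groups (r = −0.72, permutation p = 0.0021, adjusted p = 0.021; rho = −0.75, permutation p = 0.0017, adjusted p = 0.020; r = −0.71 without the 2 farthest arrays). For Ciita r was −0.64 (permutation p = 0.014, adjusted p = 0.054) with rho = −0.59 (permutation p = 0.019, adjusted p = 0.077), and −0.63 without the 2 farthest arrays. For H2-Ob r was −0.56 (permutation p = 0.043, adjusted p = 0.10) with rho = −0.50 (permutation p = 0.042, adjusted p = 0.13), and −0.68 without the 2 farthest arrays. For H2-Oa none was detected (r = 0.02, permutation p = 0.93, adjusted p = 0.93; rho = 0.05, permutation p = 0.85, adjusted p = 0.89; r = −0.19 without the 2 farthest arrays). With these lists as a covariate the nephritic differences of H2-Oa and H2-Ob were −1.35 and −1.004.

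The other genes of the pathway were grouped by step. Proteases and their helpers, which digest antigen and the invariant chain, held 4 genes that rose and 0 that fell out of 12 in nephritic arrays, with a list median of 0.08 against −0.02 over all genes. Ctsd, the cathepsin D gene, rose by 0.98 ± 0.10, Ctsl by 0.88 ± 0.15, Lgmn, which encodes asparaginyl endopeptidase, by 0.53 ± 0.11 and Ctsb by 0.28 ± 0.07 (adjusted p = 1.3e-05, 0.0013, 0.0046 and 0.017). Ifi30, the gene of the thiol reductase that unfolds antigens, stood at 0.10 ± 0.09 (adjusted p = 0.55). In remission against nephritic arrays 1 of the 12 was lower, Ctsd, by 0.77 ± 0.11 (adjusted p = 0.00031), and 0 were higher.

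Trafficking and turnover genes rose in 2 and fell in 0 of 10 measured members in nephritic arrays, with a median of 0.04. Marchf1, which encodes a ubiquitin ligase that removes class II from the cell surface, rose by 0.28 ± 0.09 (adjusted p = 0.049) and Lamp1, a lysosomal membrane gene, by 0.15 ± 0.04 (adjusted p = 0.030). Both calls were fragile, since Marchf1 lost its call in 20 and Lamp1 in 14 of 30 alternatives. Cd83, whose product opposes that ligase, stood at −0.20 ± 0.08 (adjusted p = 0.11). The adaptor gene Ap1m1 was lower in remission than in nephritic arrays, by 0.52 ± 0.12 (adjusted p = 0.0091), the only 1 of these 10 to pass there.

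Receptors that act with the invariant chain in signalling by the cytokine MIF rose in 2 of 3 measured members, Cd44 by 0.73 ± 0.13 and Cxcr4 by 0.66 ± 0.13 (adjusted p = 0.0014 and 0.0022), and the same 2 were lower in remission than in nephritic arrays, by 0.80 ± 0.15 and 0.51 ± 0.14 (adjusted p = 0.0021 and 0.026). Ackr3 stood at 0.57 ± 0.58 in nephritic minus prenephritic arrays (adjusted p = 0.61). These pathway calls compare with 6.74% of all genes higher and 5.32% lower in that comparison. In remission against nephritic arrays 3.27% of all genes were called higher and 10.0% lower. The 1 of 12 proteases and helpers and the 1 of 10 trafficking genes called lower there are near that share.

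Among upstream regulators of Ciita 1 rose and 2 fell of 15 measured genes in nephritic arrays, with a median of 0.08. Il10, the gene of a cytokine known to lower surface class II on macrophages, rose by 2.47 ± 0.51 (adjusted p = 0.0043), and was lower in remission than in nephritic arrays by 2.86 ± 0.58 (adjusted p = 0.0041). The transcription factor genes Irf4 and Irf8 fell by 0.67 ± 0.15 and 0.42 ± 0.13 (adjusted p = 0.0066 and 0.039), and Irf8 lost its call in 14 of 30 alternatives. Jak2, a kinase gene of interferon-γ signalling, was lower in remission by 0.41 ± 0.12 (adjusted p = 0.029), a call lost in 11 of 30 alternatives. Of the 10 measured enhanceosome and cofactor genes 0 passed the limma test in nephritic arrays. Rfx5, the gene of the RFX subunit that binds the X box, stood at −0.30 ± 0.10 (adjusted p = 0.060) and the acetyltransferase gene Ep300 at −0.14 ± 0.05 (adjusted p = 0.11). In remission against nephritic arrays 1 of the 10 was lower, the chromatin remodeller gene Smarca4, by 0.31 ± 0.10 (adjusted p = 0.044), a call lost in 17 of 30 alternatives. Of all genes 10.0% were called lower there, so a count of 1 of 10 is at the background share.

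The neighbours of the class II genes on chromosome 17 were read as well. Btnl2, a butyrophilin-like gene of the region, rose by 1.08 ± 0.28 in nephritic arrays (adjusted p = 0.019), and 0 of the other 6 measured neighbours passed. In remission against nephritic arrays 5 of 7 neighbours were lower, as were 10.0% of all genes. Markers of other cells were lower there too, 7 of 12 measured T cell and innate lymphoid genes and 5 of 13 monocyte genes. The T cell list ran from −0.36 to 0.15 in prenephritic, from −0.03 to 0.51 in nephritic and from −0.53 to −0.28 in remission arrays, and its part in the neighbours' values was not tested. The 5 neighbours were Btnl2 by 1.26 ± 0.32, Tap1, a peptide transporter gene, by 0.77 ± 0.17, the immunoproteasome genes Psmb9 and Psmb8 by 0.46 ± 0.14 and 0.40 ± 0.12, and H2-DMb2 by 0.85 ± 0.20 (adjusted p = 0.015, 0.0070, 0.033, 0.034 and 0.0089). The call was lost in 11 of 30 alternatives for Psmb9 and in 15 for Psmb8. H2-DMb2 is a close copy of H2-DMb1, and their probe sets gave different values. H2-DMb2 stood at 9.91 ± 0.42 (SD, n = 6), 10.01 ± 0.28 (SD, n = 7) and 9.16 ± 0.26 (SD, n = 4) in prenephritic, nephritic and remission arrays, while H2-DMb1 differed by 0.12 ± 0.07 between remission and nephritic arrays (adjusted p = 0.25). How far each probe set reads the other copy was not tested.

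**Figure D4:**
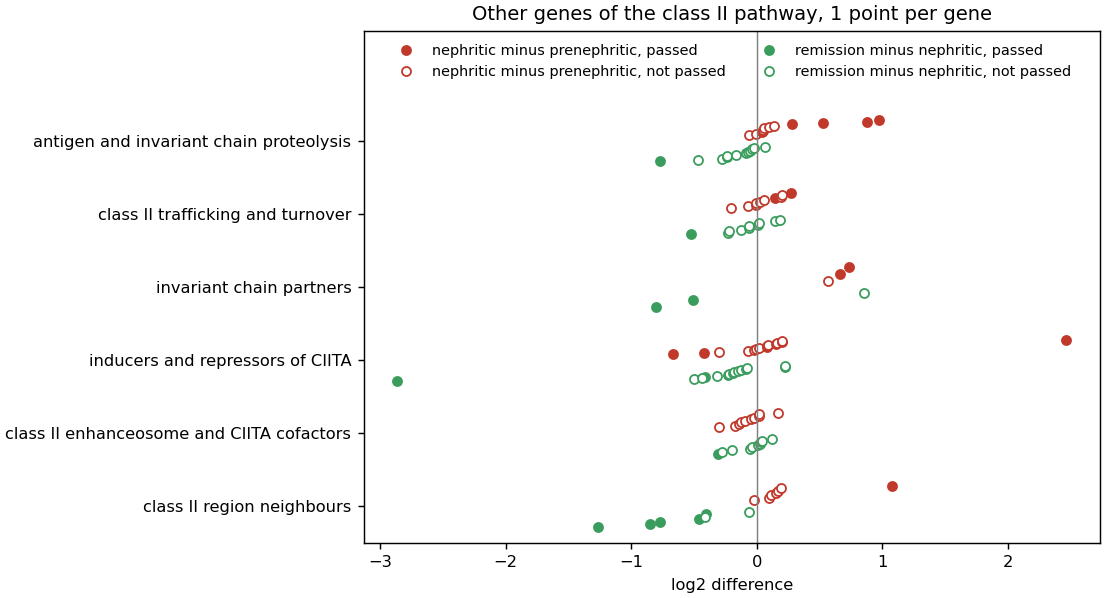
Log2 differences (x axis) of the genes in 6 lists of the class II pathway, 1 point per gene, for nephritic minus prenephritic (red) and remission minus nephritic (green); filled points have an adjusted p of at most 0.05. Filled red points include Ctsd (0.98), Cd44 (0.73) and Il10 (2.47), and all filled green points lie below 0.

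Genes most like the classical chains were found by Pearson's r over 17 arrays with the mean of H2-Aa, H2-Ab1, H2-Eb1 and Cd74, as a description of the highest 6 among 15771 other genes. They were Rbpj (0.90), Tle1 (0.88), Ccng2 (0.88), Clec5a (0.86), Adam19 (0.86) and Lpar6 (0.86). Their nephritic minus prenephritic differences ran from −1.48 for Adam19 to −0.47 for Lpar6, a direction that the choice by likeness to a mean lowest in nephritic arrays favours. Genes most like Ciita were Actr5 (0.89), Foxp4 (0.87), Zfp3 (0.85), Tmeff2 (0.84), Fam98c (0.84) and St6galnac6 (0.84).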

How the data were processed

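The authors' deposited values are log2 signals from RMA, per the submitters' processing notes (version not given). RMA corrects the background, equalises the distributions of the arrays by quantiles and summarises each probe set. The probe definition, filters and build are not given in the labels. Of 16539 probe sets, 64 are controls, and the 15780 with 1 gene symbol were tested. Array medians ran from 7.49 to 7.68. The number of arrays limits the precision.

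From these values, 1 limma 3.58.1 model in R 4.3.3 was fitted to all 17 arrays with a mean per group. Tests were two-sided, p-values were adjusted by Benjamini-Hochberg over all 15780 genes, and the threshold was 0.05. The fit was tested on simulated data. Rank-sum tests were exact, and correlations were permuted 100000 times within groups.

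The named genes were the members, up to 4 genes of smallest p per list in each of the first 2 comparisons, defining marker genes, and the 6 genes most like the classical chains or Ciita. The members and lists were chosen with earlier results of these data known. Alternatives changed the filter, scaling, variance prior, weights, arrays, covariates or test.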

Additional observations from a re-analysis of the deposited data

Results flagged for a closer look

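Of 27 sets of values (9 members in 3 groups), 3 had an array set apart from the rest of its group by a Dixon gap, and chance alone marks about 1 in 20 such sets. For H2-Ob, prenephritic replicate 6 was at 9.06, with the next array at 9.84, and nephritic replicate 5 was at 8.15, with the next at 8.98. For Cd74, remission replicate 4 was at 14.37, with the next at 14.33.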

How the results depend on the processing

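All 9 members kept a lower nephritic than prenephritic mean in 30 alternatives, and the calls of H2-Oa and H2-Ob were lost only in the exact rank-sum test. In both comparisons with remission that test called 0 of 15780 genes. A remission call lost in that alternative is therefore not particular to the gene. The count of members lower in nephritic arrays (2) was 3 after repeated quantile normalization, where H2-DMb1 passed (adjusted p = 0.041), 4 with a trended robust variance prior, 4 with the tubule lists as covariate, 0 in the rank-sum test and 2 to 4 with single arrays left out. H2-Ab1 and H2-DMb1 passed without prenephritic replicate 4, H2-DMb1 without prenephritic replicate 6 or nephritic replicate 3, and H2-Ab1 without nephritic replicate 7. The count higher in remission than in nephritic arrays (0) was 2 with the tubule lists and 1 with the dendritic cell list as covariate. The count lower in remission than in prenephritic arrays (0) was 1 with array weights, 1 with the replicate block and 0 to 1 with single arrays left out, each time H2-Oa.

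Differences near 0 changed sign, and the cause was not tested. For remission minus nephritic, H2-DMa was −0.035 with array weights, −0.010 with the dendritic cell list and −0.067 to 0.068 with single arrays left out. Ciita was 0.21 with the tubule lists. H2-Oa was 0.29 with the B cell list, 0.34 with the dendritic cell list, 0.064 without nephritic replicate 6 and prenephritic replicate 5, and −0.24 to 0.35 with single arrays left out. For remission minus prenephritic, the tubule lists gave 0.030 for H2-Ab1, 0.038 for H2-Eb1 and 0.023 for H2-DMb1. H2-Eb1 was 0.0029 after repeated quantile normalization and −0.029 to 0.013 with single arrays left out, and Cd74 was −0.0034 with the dendritic cell list and −0.0074 to 0.012 with single arrays left out.

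Whether replicate numbers pair the arrays could not be settled. Deviations of the 14 same-numbered pairs had r from −0.26 to 0.80 (median 0.12), and the 80 other pairs between groups from −0.73 to 0.79 (median 0.0055). Of the 17 arrays, 3 correlated best with their own number. A block by replicate number raised the number of genes called in the comparisons with remission and lowered it for nephritic minus prenephritic. With the replicate block the nephritic differences were −1.42 for H2-Oa and −0.97 for H2-Ob, and the remission minus prenephritic difference of H2-Oa was −1.55.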
